A study of Macaca mulatta with 35 samples.

Results

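Cumulus cells are the somatic cells that enclose the oocyte in an antral follicle, a follicle with a fluid-filled cavity. Granulosa cells derive from the same lineage and line the follicle wall. Cumulus cells send thin projections through the zona pellucida to the oocyte and pass metabolites to it through gap junctions, while oocyte-secreted factors act on the cumulus cells. The transcripts described here were selected as higher in rhesus monkey cumulus cells than in both granulosa cells and oocytes. They were also selected for similar levels in granulosa cells and oocytes, on the scale described below.

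Transcripts were selected on measured TPM and counts. A transcript was kept if it had a mean of at least 50 estimated counts in cumulus libraries, if the means of log2(TPM + 1) in granulosa cells and oocytes were less than 1 apart, and if the cumulus mean exceeded the higher of them by more than 1. TPM is a level per transcript length that sums to a fixed total in each library. Of 49537 transcripts, 21060 had the minimum of counts and 1452 met all criteria, and the 150 with the largest difference were kept, 0.303% of all transcripts. The selection set 4 transcript IDs aside by name. The same criteria turned to the other cell types gave 7595 transcripts for oocytes and 46 for granulosa cells. The last transcript inside the limit, ENSMMUT00000080153.1, had a difference of 1.7292 and the first outside it, ENSMMUT00000105833.1, had 1.72772, so the limit fell within a continuous series. All differences between cumulus cells and the other cell types given here were used for the selection and are descriptions without a test.

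Cells were isolated from single antral follicles of adult female rhesus monkeys, with ovaries recovered at necropsy and no treatment named in the labels. The libraries comprised cumulus cells of small (n = 3), medium (n = 4) and large (n = 4) follicles, and granulosa cells and oocytes of the same sizes with n = 4 in each group, 35 libraries in 9 groups. Diameters, ages and the animal or follicle behind each library are not given in the labels, so p-values measure the spread between libraries, which may be partly technical. Libraries are named by cell type, size and the number in their title. The files do not pair transcript IDs with genes, and 0 of 49537 IDs matched the gene tables used here. No gene name, function or sequence can therefore be attached to a transcript, and the cell type labels could not be checked against marker genes.

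Total estimated counts ran from 25942222 to 31971358 in cumulus libraries, from 22067194 to 33772697 in granulosa libraries and from 20780476 to 52350387 in oocyte libraries. Some libraries stood apart. Of the 7595 transcripts that met the criteria for oocytes, the 150 with the largest difference were taken as oocyte transcripts. They held 0.0954% to 0.216% of TPM in cumulus small 1, small 2, medium 2 and large 3. In granulosa medium 4 and large 1 they held 0.0937% and 0.156%, and at most 0.0308% in the other 17 somatic libraries. Granulosa small 1 had the fewest counts of the granulosa libraries and the highest level of the cumulus-enriched transcripts among them. RNA from other cell types and RNA within each cell cannot be told apart in libraries of many cells.

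The 150 transcripts together held 0.430% to 0.607% of TPM in the 11 cumulus libraries, 0.0521% to 0.211% in the 12 granulosa libraries and 0.0409% to 0.120% in the 12 oocyte libraries. Their geometric mean was 9.82 to 18.3 TPM in cumulus cells, 0.990 to 6.97 TPM in granulosa cells and 1.28 to 2.60 TPM in oocytes. No granulosa or oocyte library reached the lowest cumulus library in either measure. The name cumulus-restricted does not hold in the sense of absence elsewhere, and they are called cumulus-enriched here. Of the 150, 134 had estimated counts in every granulosa library (89.3%, against 86.4% of the 21060), 111 in every oocyte library (74%, against 76.5%) and 107 in all 35 libraries (71.3%, against 68.7%). In this the members were near all transcripts with the minimum of counts.

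**Figure D1:**
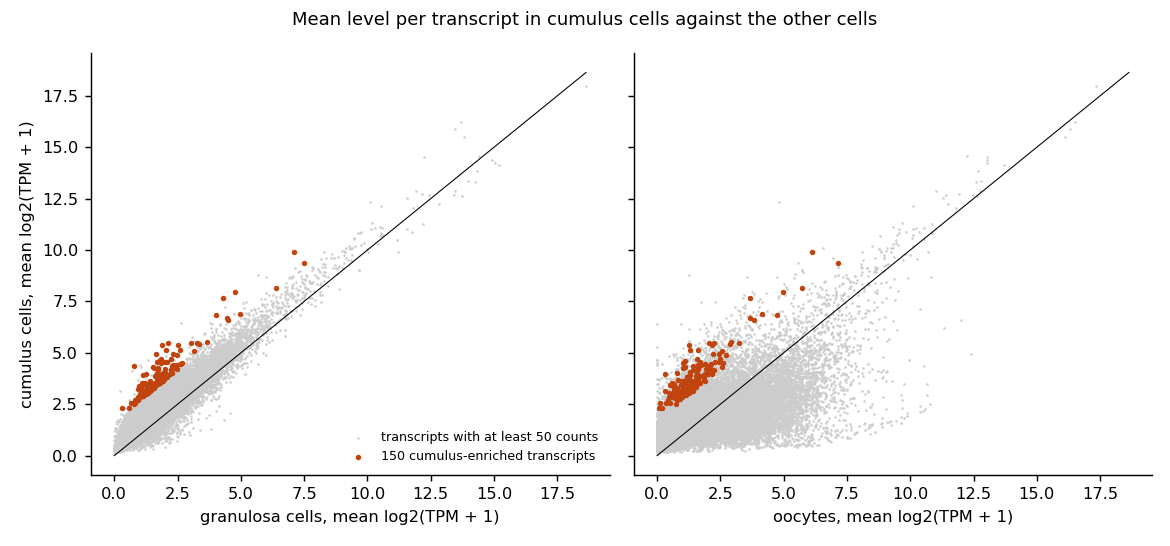
Mean log2(TPM + 1) of each transcript in cumulus cells (vertical axis, 11 libraries) against granulosa cells (left) and oocytes (right, 12 libraries each). Grey points are the 21060 transcripts with at least 50 counts, red points the 150 cumulus-enriched transcripts, and the line marks equal levels. The red points lie above the line in both panels because they were selected for it.

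Most members were of low to moderate abundance. The mean TPM in cumulus cells ran from 4.83 to 973 with a median of 12.3, and 100 members reached 10 TPM and 10 reached 50 TPM. These 10 held 58.6% of the members' TPM in cumulus cells, and the 3 most abundant held 38.7%. The median member stood at 2.87 TPM in granulosa cells and 1.80 TPM in oocytes. The difference in mean log2(TPM + 1) from the higher of the other cell types ran from 1.73 to 3.50, with a median of 1.90, and exceeded 2 in 54 members and 3 in 5. Granulosa cells were the higher of these in 121 members and oocytes in 29.

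The members were short for expressed transcripts and often belonged to transcript models that had not been revised. Their median length was 1461.5 bases, with a range from 333 to 7463, and 34% were under 1000 bases. Among the 21060 transcripts with the minimum of counts, the median was 2790.5 bases and 5.04% were under 1000. The 7870 of these with at least the cumulus level of the lowest member had a median of 2303.5 bases, and 11.3% were under 1000. The number after the point in an Ensembl ID counts the revisions of the transcript model. It was 1 in 102 members, 68%, against 43.7% of the 21060 and 39.3% of the 7870. Of the 1302 transcripts that met the criteria beyond the limit, 72.1% had version 1, 9.83% were under 1000 bases and the median length was 1890.5. These differences in length and version were not tested. Estimated counts were whole in every library, within 1e-06, for 22 members, 14.7%, against 7.95% of the 21060. For the other members reads were shared with other transcripts, and a level can reflect how they were divided.

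ENSMMUT00000100216.1, 1050 bases long with whole counts, had the largest difference of all, 3.50. In cumulus cells it stood at 44.9, 34.5 and 88.4 TPM in small follicles, at 33.8, 44.2, 62.9 and 36.0 TPM in medium follicles and at 28.1, 19.2, 47.3 and 48.5 TPM in large follicles. Granulosa libraries ran from 0.537 to 11.8 TPM with a median of 2.25, and oocyte libraries from 0 to 14.0 with a median of 1.40. Every cumulus library lay above every other library. Its highest granulosa values, 7.59, 9.68 and 11.8 TPM, were in small 2, medium 3 and large 3.

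ENSMMUT00000007991.3, 969 bases long and also with whole counts, followed with a difference of 3.38. Its cumulus values were 45.5, 69.2 and 60.3 TPM in small follicles, 29.5, 48.5, 44.0 and 36.8 TPM in medium follicles and 74.5, 20.8, 45.4 and 38.4 TPM in large follicles. Granulosa libraries ran from 0.820 to 16.9 TPM with a median of 2.80, and oocyte libraries from 0.355 to 10.2 with a median of 3.61. Its groups did not overlap either, and the lowest cumulus library, large 2, was nearest to the highest granulosa library, medium 3.

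The most abundant member was ENSMMUT00000096624.1, 2576 bases long, at 973 ± 231 TPM in cumulus cells (SD, n = 11), 171 ± 132 TPM in granulosa cells (SD, n = 12) and 85.8 ± 63.6 TPM in oocytes (SD, n = 12). Its lowest cumulus library, medium 1, held 611 TPM and its highest granulosa library, medium 3, held 498 TPM. The next, ENSMMUT00000071051.2, is 414 bases long and stood at 712 ± 256 TPM in cumulus cells (SD, n = 11), 256 ± 230 TPM in granulosa cells (SD, n = 12) and 147 ± 39.8 TPM in oocytes (SD, n = 12). Its cumulus libraries ran from 279 TPM in medium 1 to 1143 TPM in large 1. They overlapped with granulosa cells, where the libraries of number 1 held 377, 768 and 628 TPM in small, medium and large follicles and the other 9 held 38.0 to 245 TPM.

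**Figure D2:**
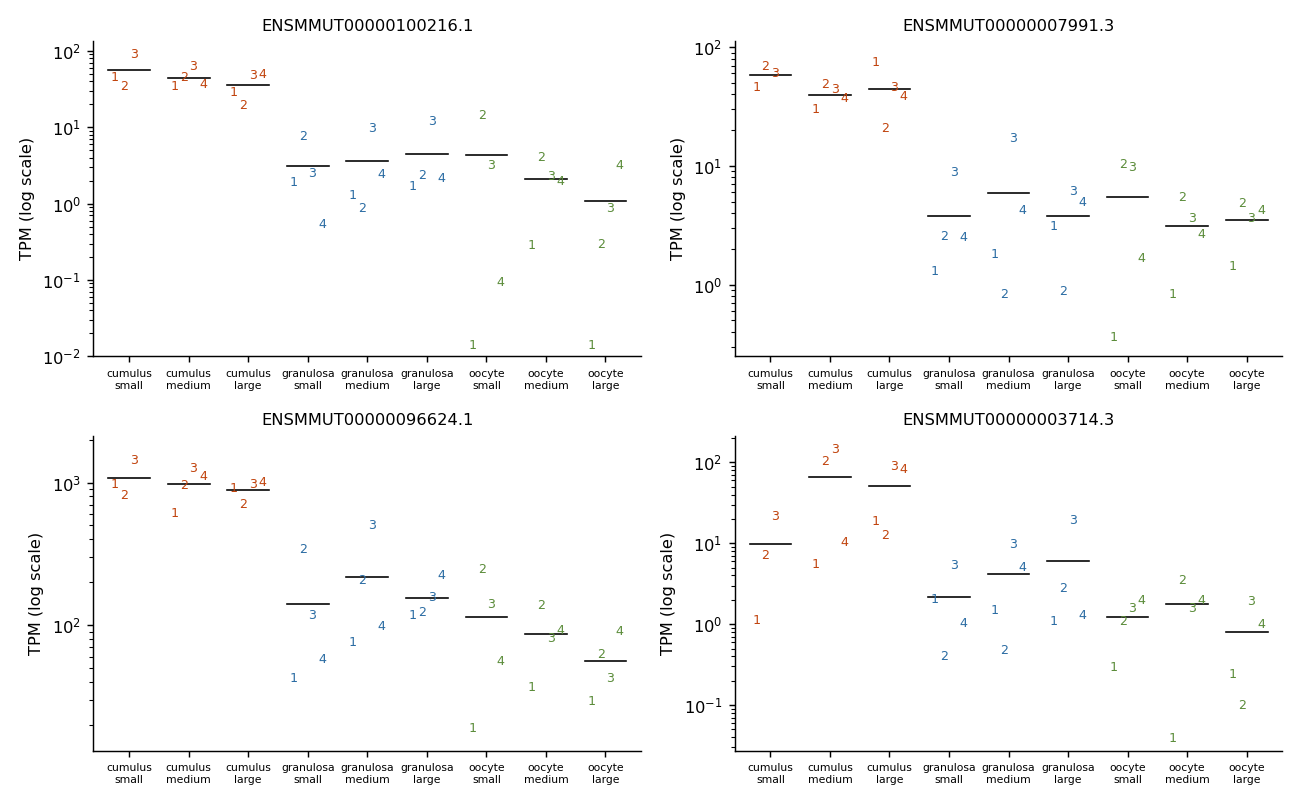
TPM on a log scale in the 9 groups for the members with the largest differences (upper panels), the most abundant member (lower left) and the member that varied most between cumulus libraries (lower right). Each digit is a library, shown by its number, and bars are arithmetic means. ENSMMUT00000100216.1 was listed at 0 in oocyte small 1 and large 1, which are drawn at the bottom of its panel.

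Members differed in how evenly cumulus libraries held them. The coefficient of variation of TPM over the 11 cumulus libraries had a median of 0.416, against 0.420 for the 21060 transcripts, and ran from 0.228 to 1.11. The steadiest member was ENSMMUT00000092738.1, 701 bases long, between 10.2 and 21.8 TPM. The most variable was ENSMMUT00000003714.3, 1443 bases long with whole counts. It stood at 1.11, 7.03 and 21.5 TPM in small follicles, at 5.39, 102, 143 and 10.3 TPM in medium follicles and at 18.5, 12.4, 89.3 and 82.4 TPM in large follicles. Its high libraries were medium 2, medium 3, large 3 and large 4, and the other cumulus libraries but small 3 lay below its highest granulosa library, 19.2 TPM.

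Which cumulus library stood highest was uneven. Cumulus medium 1 was highest for 52 members, 34.7%, and cumulus small 2 for 37, 24.7%. Among the 21060 transcripts these shares were 19.9% and 12.1%, and the library most often highest was large 2 with 22.0%, which was highest for 8 members, 5.33%. Cumulus large 3 was lowest for 58 members, 38.7%, against 21.2% of the 21060. Small 2 and large 3 are both among the libraries with oocyte transcripts, whose part in these levels was not tested. Of the 52 members highest in medium 1, 47 had ID version 1, or 90.4%, as had 29 of the 37 highest in small 2, 78.4%. The 102 members of version 1 had a geometric mean of 18.5 TPM in medium 1 and 7.29 TPM in large 3. For the 48 revised members these values were 18.0 and 18.1 TPM. Medium 1 and large 3 are the libraries where members were most often highest and lowest. Whether version 1 transcripts outside the members differ in the same way was not tested.

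**Figure D3:**
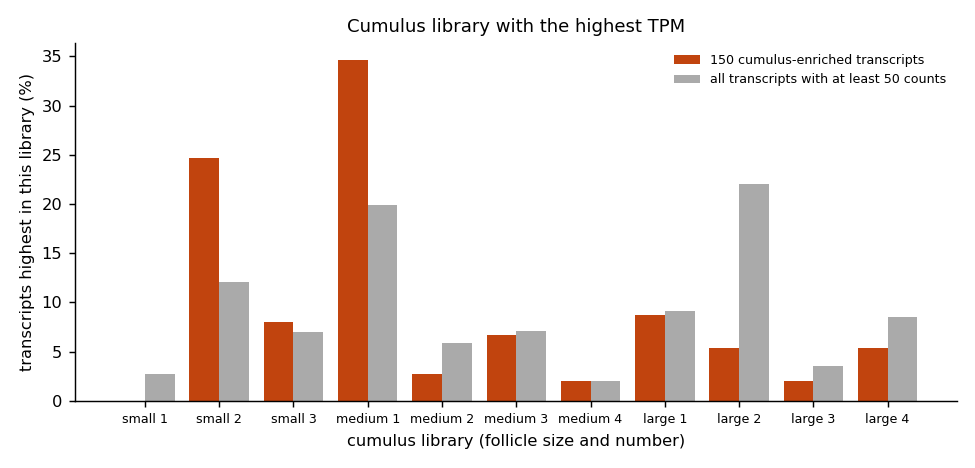
Percent of transcripts whose highest TPM among the 11 cumulus libraries was in the library on the horizontal axis, for the 150 cumulus-enriched transcripts (red) and the 21060 transcripts with at least 50 counts (grey). Medium 1 and small 2 hold 34.7% and 24.7% of the members, and large 2 leads among all transcripts with 22.0%.

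Over the 11 cumulus libraries, pairs of members had a median Pearson r of log2(TPM + 1) of 0.28, and 37.3% of pairs had an r over 0.5 and 32.6% an r under 0. Among all pairs of the 21060 transcripts these values were 0.10, 15.3% and 40.0%. Many of the 21060 had lower cumulus levels than any member, and pairs of transcripts of similar level were not compared. These are descriptions over libraries that share depth, amplification and the fixed total of TPM. The members most like the others were ENSMMUT00000103603.1, between 6.57 TPM in large 3 and 30.5 TPM in medium 1, and ENSMMUT00000080738.1, between 7.49 TPM in large 3 and 26.5 TPM in medium 1. A group of 22 members had a negative mean r with the rest. It included 7 of the 10 members of at least 50 TPM, 8 of the 102 members of version 1 and 14 of the 48 revised members.

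Granulosa libraries differed far more in these transcripts. The median coefficient of variation was 0.989 over granulosa libraries and 0.648 over oocyte libraries. The members were selected for lower levels in these cells, and the coefficients were not compared with those of the 21060 transcripts. The geometric mean of the members was 6.97, 4.97 and 4.90 TPM in granulosa small 1, medium 1 and large 1. It was 4.08 TPM in large 3 and 0.990 to 2.77 TPM in the other 8 libraries. The 3 libraries of number 1 were thus the highest of the granulosa libraries. The granulosa library with the highest value carried number 1 for 118 members, 78.7%, against 55.8% of the 21060 transcripts, and granulosa small 1 alone was highest for 88, 58.7%, against 23.3%. Number 3 was highest for 26 members, 17.3%, against 9.53%, and number 4 for 3 members, 2%, against 26.0%.

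**Figure D4:**
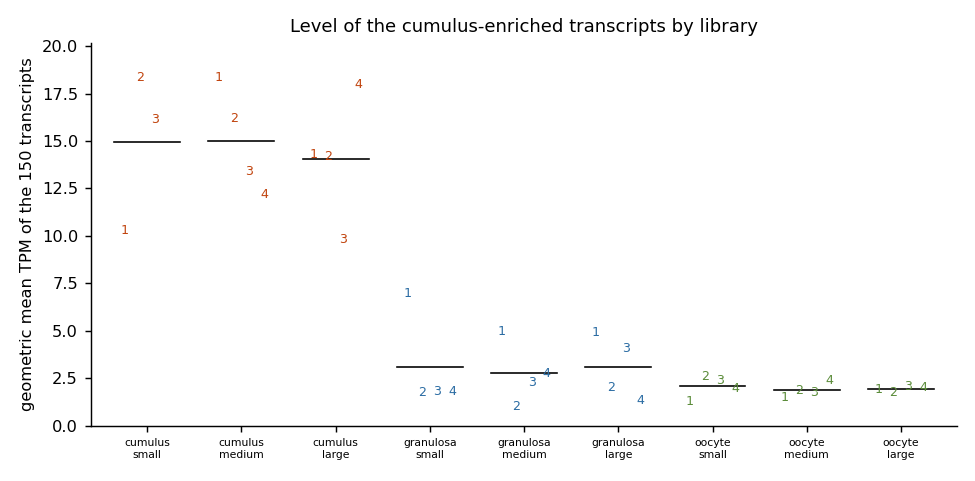
Geometric mean TPM of the 150 cumulus-enriched transcripts in each library, by cell type and follicle size. Each digit is a library, shown by its number, and bars are group means. Cumulus libraries lie between 9.82 and 18.3 TPM, and the granulosa libraries of number 1 are the highest outside cumulus cells.

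The library number accounted for a median of 69.1% of each member's variance over granulosa libraries, and follicle size for 5.36%. Among the 21060 transcripts these shares were 60.7% and 7.46%, and labels unrelated to the levels would give 27.3% for number and 18.2% for size. In cumulus cells number accounted for 25.2% of the members' variance, where unrelated labels would give 30%, against 25.4% for the 21060. In oocytes it accounted for 31.8%, against 36.6% for the 21060 and 27.3% for unrelated labels. The share in granulosa cells exceeded 50% in 117 members, 78%, against 64.8% of the 21060. It was highest in ENSMMUT00000006803.4, 91.5%, and ENSMMUT00000018450.4, 91.4%, which are named after their values were seen. The former held 8.07 to 10.7 TPM in granulosa libraries of number 1, 0.840 to 1.11 in those of number 2, 1.06 to 3.04 in those of number 3 and 2.35 to 4.78 in those of number 4. The latter had its highest granulosa values in number 3, 2.36 to 3.78 TPM, and its lowest in number 2, 0.0827 to 0.330 TPM. In cumulus cells the 4 numbers of the former had means from 12.7 to 16.6 TPM, and those of the latter from 9.82 to 11.3 TPM. The labels do not say what a number stands for, and the number of cumulus small 3 is uncertain, as described below.

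The members were also compared library by library. All cumulus values exceeded all oocyte values for 107 members, against a background of 14.8% of the 21060 transcripts. All cumulus values exceeded all granulosa values for 18 members (background 1.55%) and all values of both other cell types for 15 (background 0.551%). The selection used these values, so nothing is read from the difference to the background. Granulosa small 1 reached the lowest cumulus value of 99 members, granulosa large 1 of 50, granulosa medium 1 of 46 and granulosa large 3 of 24, while granulosa medium 2 reached it for 0. Without granulosa small 1, cumulus libraries stood above all others for 59 members and 2.74% of the 21060. Without the 6 somatic libraries with oocyte transcripts, the count was 32, against 2.81% of the 21060.

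TPM sets each library to the same total, so levels of different cell types depend on what else they express. The 21060 transcripts were filtered on counts in cumulus cells alone, which by itself favours higher levels there, to an extent not tested. Their median was higher in cumulus than in granulosa cells by 0.46 and than in oocytes by 0.23 on the log2(TPM + 1) scale. For the members these medians were 1.91 and 2.27. Scaling by TMM factors, which centre the libraries on the bulk of transcripts, lowered cumulus minus granulosa by 0.75 and raised cumulus minus oocyte by 0.37 on the log2 scale. With CPM, counts scaled to the library total, per kilobase on that scale, cumulus cells exceeded the higher of the others by 1.01 to 3.04, with a median of 1.42, and all 150 members kept a difference over 1. Of these, 91 met every criterion. The other 59 had a granulosa mean more than 1 above the oocyte mean. Cumulus libraries stood above all others in 3 members on TMM-scaled CPM, against 0.0997% of the 21060.

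The enrichment was present in follicles of each size. Calculated on small, medium or large follicles alone, the median difference was 1.88, 2.06 and 1.79 in log2(TPM + 1). It exceeded 1 in 148, 149 and 150 members. Since the selection used the means over all sizes, these values describe its evenness.

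The change of the members with follicle size was not used in the selection and was tested within the 11 cumulus libraries. All 150 members passed the filter on low counts. The edgeR test recovered 40% of 16-fold changes simulated between large and small follicles, in transcripts drawn from all that passed the filter. Recovery was not measured for the members, and a count of 0 does not by itself exclude changes. Of the members, 0 were called between medium and small, large and medium, or large and small follicles (edgeR quasi-likelihood test, adjusted p under 0.05), against a background of 0% of the 31869 transcripts tested in each comparison. At an unadjusted p under 0.05, edgeR had 10 members between medium and small follicles (5 higher and 5 lower, background 3.69%). It had 16 between large and medium (1 higher and 15 lower, background 3.66%) and 12 between large and small (8 higher and 4 lower, background 3.72%). The count between large and medium depended on single libraries. It was 4 without medium 1, large 1, large 2 or large 3, and 24 without medium 3. Over all transcripts it was 782 of 31412 without medium 1 and 1869 of 31537 without medium 3. DESeq2, the other tool run, called 3, 0 and 2 members at an adjusted p under 0.05, with backgrounds of 0.643%, 0.342% and 0.596%.

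Across the list, differences between large and medium follicles leaned to lower values. Over all transcripts tested the median log2 difference was 0.01 and 50.6% were positive. Over the members it was -0.36, and 107 of 150 were negative. Without cumulus medium 1, where members most often peaked, the median was -0.18 with 103 negative. Members of ID version 1 had a median of -0.44, with 16 of 102 positive, and the revised members had 0.08, with 27 of 48 positive. These were not set beside all transcripts of version 1, so the difference may not be particular to the members. Between large and small follicles the median was -0.26 with 107 negative, and -0.09 without cumulus small 2. Between medium and small follicles it was 0.09 with 93 positive, and -0.04 without cumulus medium 1. Of all transcripts tested, 49.0% were positive for large against small (median -0.01) and 51.6% for medium against small follicles (median 0.02). Members vary together over the same libraries, so these counts are not independent. The 10 members of at least 50 TPM had medians of 0.08, 0.03 and 0.09 for medium against small, large against medium and large against small follicles.

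**Figure D5:**
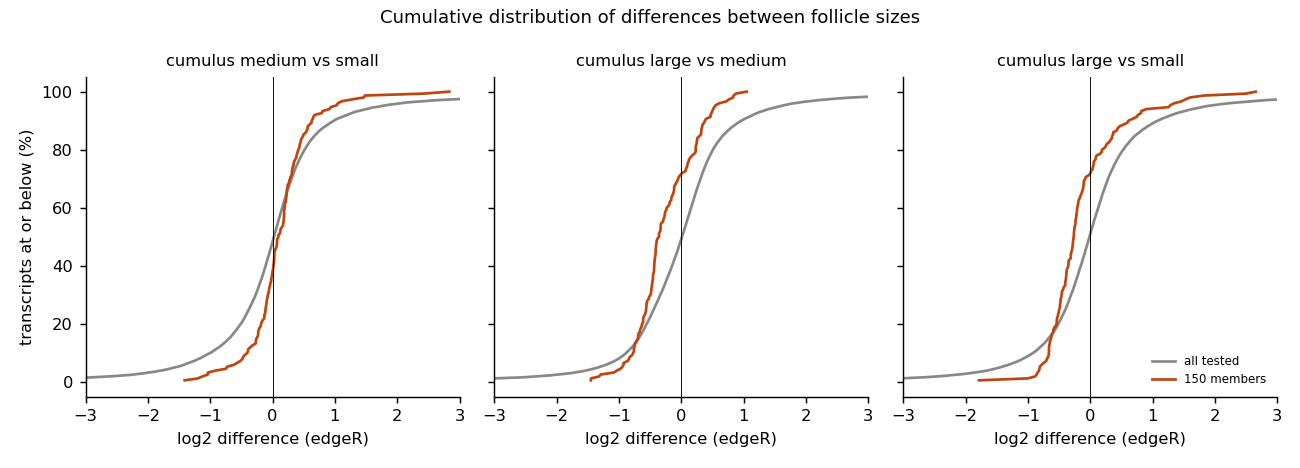
Cumulative percent of transcripts at or below a log2 difference between follicle sizes in cumulus cells, from the edgeR fit, for the 150 members (red) and all 31869 transcripts tested (grey). The axis is drawn from -3 to 3. The member curve crosses 50% left of 0 for large against medium (median -0.36) and large against small follicles (median -0.26), and 0 members passed the test.

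The smallest p between large and small follicles belonged to ENSMMUT00000097921.1, 1686 bases long with whole counts. It stood at 14.3, 14.3 and 14.0 TPM in cumulus cells of small follicles, at 5.32, 5.15, 9.53 and 6.37 TPM in medium follicles and at 2.12, 5.68, 4.42 and 4.97 TPM in large follicles. The small follicle libraries lay above all other cumulus libraries. The log2 difference between large and small follicles was -1.79 with an SE of 0.36 (edgeR, unadjusted p = 0.00048, adjusted p = 0.92, and DESeq2 adjusted p = 0.00165). In granulosa cells it stood at 6.26, 10.7 and 16.4 TPM in number 1 of small, medium and large follicles and at 0.0219 to 2.65 TPM in the other 9 libraries.

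ENSMMUT00000013862.4, 3386 bases long, had the smallest p among members higher in large follicles. Its cumulus values were 1.68, 2.61 and 3.25 TPM in small follicles, 6.94, 29.4, 14.6 and 2.29 TPM in medium follicles and 10.6, 11.3, 11.3 and 32.7 TPM in large follicles. Large and small follicles did not overlap, and medium 4 lay within the range of small follicles. The log2 difference was 2.65 with an SE of 0.72 for large against small (edgeR adjusted p = 1, DESeq2 adjusted p = 0.0122) and 2.43 with an SE of 0.71 for medium against small (edgeR adjusted p = 1, DESeq2 adjusted p = 0.0392). The latter was 1.75 without cumulus medium 2 (edgeR). It was 1.45 without the libraries with oocyte transcripts, a fit in which small 3 was the only cumulus library of small follicles.

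The other members that DESeq2 called between medium and small follicles were lower in medium follicles. ENSMMUT00000090236.1, 3636 bases long, held 29.3, 35.8 and 51.2 TPM in small follicles, 14.8, 23.2, 17.6 and 16.1 TPM in medium follicles and 21.2, 28.6, 18.0 and 34.6 TPM in large follicles. All medium libraries lay below all small ones (log2 difference -1.04, SE 0.22, edgeR adjusted p = 1, DESeq2 adjusted p = 0.000532). ENSMMUT00000091073.1, 333 bases and the shortest member, held 33.4, 25.4 and 38.3 TPM in small, 10.9, 14.9, 12.2 and 9.43 TPM in medium and 21.5, 34.9, 16.6 and 19.3 TPM in large follicles. In this member the medium libraries also lay below all large ones (log2 difference to small -1.41, SE 0.37, edgeR adjusted p = 1, DESeq2 adjusted p = 0.00772), which those of ENSMMUT00000090236.1 did not. It rests on 190 to 386 counts per size.

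Between large and medium follicles, the members with the smallest p were lower in large follicles. ENSMMUT00000098433.1 held 17.3, 11.8, 7.08 and 10.5 TPM in medium and 6.03, 6.23, 3.92 and 8.73 TPM in large follicles (log2 difference -1.04, SE 0.35, edgeR adjusted p = 0.999984). ENSMMUT00000085231.1 held 37.6, 23, 18.6 and 28.1 TPM in medium and 15.5, 18.2, 11.6 and 24.0 TPM in large follicles (log2 difference -0.78, SE 0.27, edgeR adjusted p = 0.999984). The groups overlapped in both, through large 4.

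The change from small to large follicles was also compared between cumulus and granulosa cells, with 34521 transcripts tested. The fit did not include the library number, which accounted for a median of 69.1% of the members' variance over granulosa libraries. The spread between numbers is therefore part of the spread that this test used. Of the members, 0 were called (edgeR, background 0.00290%), 2 had an unadjusted p under 0.05 (background 3.87%) and DESeq2 called 1 (background 0.973%). The median over the members was -0.13, against 0.02 over all transcripts tested. It ran from -0.98 without granulosa small 1 to 0.31 without granulosa large 3. In both of these fits, small and large granulosa libraries no longer held the same numbers. The median was 0.11 without the 6 libraries with oocyte transcripts, which left small 3 as the only cumulus library of small follicles. Both members under 0.05, ENSMMUT00000097535.1 and ENSMMUT00000084308.1, were at or near 0 estimated counts in all 4 granulosa libraries of small follicles. Their fitted differences depend on the prior count and give no bound. ENSMMUT00000084308.1, the member DESeq2 called, is 609 bases long. It held 14.7, 50.02 and 22.3 TPM in cumulus cells of small follicles and 18.1, 32.2, 60.1 and 21.4 TPM in those of large follicles. In granulosa cells of large follicles it held 0.744 and 13.7 TPM in numbers 1 and 3 and was listed at 0 in numbers 2 and 4.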

How the data were processed

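The labels' protocols name PicoPure for RNA extraction and the Ovation system for amplification, so reads are not independent molecules. The submitters' processing notes name bcl2fastq 2.19.1 and kallisto 0.44.0, and the transcript index is not given in the sources used here. The authors deposited estimated counts, in which a read shared by several transcripts is divided among them, and TPM, computed from these counts and the effective lengths, per the file headers.

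Levels were taken from TPM with a pseudocount of 1 on the log2 scale. Rounded estimated counts were tested with edgeR 4.0.16 in R 4.3.3 (quasi-likelihood test, robust fit, TMM factors, filter by group with a minimum count of 10, Benjamini-Hochberg adjustment over all transcripts tested) and with DESeq2 1.42.0 as an alternative. The script was tested on simulated data, with 50 transcripts changed at each fold in cumulus cells of large follicles. For large against small follicles edgeR recovered 0%, 4.26%, 28% and 40% of those tested at 2, 4, 8 and 16-fold. In the comparison of changes it recovered 0%, 2.04%, 14% and 24.5%. The changed transcripts were drawn from all that passed the filter, so these shares are not the recovery for the members. For large against small follicles the median SE was 0.40 over the members and 0.65 over all transcripts tested. The fitted log2 differences of the members ran from -1.79 to 2.65 there. A count of 0 called members does not by itself exclude changes. The 150 transcripts, the comparisons and all lists were chosen with earlier results of these data known. The marker and gene lists could not be applied, since no table paired IDs with genes.

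The transcripts named are those with the 2 largest differences, the 2 highest cumulus levels, the highest and lowest coefficient of variation, the 2 highest mean correlations, those at the limit of the selection and, from each comparison, up to 2 per direction with the smallest p. No 2 libraries of a group looked like the same library deposited again: the chi-square of their counts was at least 63.3 times its degrees of freedom in each of 51 pairs.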

Additional observations from a re-analysis of the deposited data

Results flagged for a closer look

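Groups of 4 libraries were searched for a highest or lowest library whose gap to the next, as a share of the group's range, exceeded Dixon's critical value. The search covered the 20 members named for their level, difference, spread, correlation or p, the members' share of TPM and their geometric mean, over all 8 groups of 4 and leaving out groups with no library at 0.01 TPM. Of 173 groups, 24 had such a library. The critical value is set for 1 in 20 among independent groups of normally distributed values. The members share the same libraries, some were named for their spread or p, and TPM was not transformed. The count is therefore not compared with chance. What sets these libraries apart was not tested.

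Granulosa small 1 stood out in 8 of them. The members' geometric mean was 6.97 TPM there, against 1.73 to 1.80 TPM in the other granulosa libraries of small follicles. It was also the high library of its group for ENSMMUT00000077481.2 at 5.52 TPM, ENSMMUT00000080738.1 at 10.7 TPM, ENSMMUT00000085231.1 at 19.0 TPM, ENSMMUT00000092738.1 at 11.5 TPM, ENSMMUT00000097921.1 at 6.26 TPM, ENSMMUT00000098433.1 at 9.49 TPM and ENSMMUT00000103603.1 at 15.3 TPM. Granulosa large 1 was high for ENSMMUT00000090236.1 at 21.6 TPM and ENSMMUT00000097921.1 at 16.4 TPM.

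Granulosa libraries of number 3 stood out for other members. Large 3 was high for ENSMMUT00000003714.3 at 19.2 TPM, ENSMMUT00000077481.2 at 6.82 TPM, ENSMMUT00000084308.1 at 13.7 TPM and ENSMMUT00000100216.1 at 11.8 TPM. Small 3 was high for ENSMMUT00000007991.3 at 8.86 TPM and ENSMMUT00000013862.4 at 4.16 TPM.

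In cumulus cells, ENSMMUT00000013862.4 stood at 32.7 TPM in large 4, against 10.6 to 11.3 TPM in the other libraries of large follicles. ENSMMUT00000077481.2 stood at 9.90 TPM in large 4, against 2.85 to 3.80 TPM, and at 21.8 TPM in medium 1, against 7.77 to 9.99 TPM. In oocytes the same transcript stood at 16.1 TPM in large 2 and at 2.82 TPM in medium 4. ENSMMUT00000084308.1 stood at 12.8 TPM in oocyte large 4, and ENSMMUT00000097535.1 at 0.256 TPM in oocyte medium 2 and 0.734 TPM in oocyte small 4.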

How the results depend on the processing

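With edgeR, 0 members were called in each of the 4 comparisons under other factors, no filter and each library left out. A further alternative, chosen after seeing the data, left out the 6 somatic libraries that held oocyte transcripts. It kept small 3 as the only cumulus library of small follicles, so its calls are not given. DESeq2 called 3 members between medium and small follicles, 2 between large and small and 1 in the comparison of changes. The cause was not tested.

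The criteria were met by 91 members on TMM-scaled CPM per kilobase, and by 106 to 150 under the other alternatives. At a pseudocount of 0.1, 70 members stayed among the 150 largest differences. The count of members with no overlap was 15 (0.551% of the 21060 transcripts) and ran from 15 to 59 with each library left out, highest without granulosa small 1 (2.74%). It was 3 with TMM-scaled CPM (0.0997%) and 32 without the 6 libraries (2.81%). Low levels are limited by the sharing of reads between transcripts.

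With the library number as a replicate block, 0 members were called in each comparison. In the comparison of changes the block was shared by cumulus and granulosa cells, so it could not fit a number effect particular to granulosa cells. The numbers were not taken to pair the cumulus libraries, since over all transcripts same-numbered pairs correlated at -0.13 to 0.10. Of the cumulus libraries, 2 of 11 went best with their own number, as did 12 of 12 granulosa and 12 of 12 oocyte libraries. The block and these checks take the numbers as labelled. That of a cumulus library of small follicles is uncertain, as described below. Over the members alone, same-numbered cumulus pairs correlated at -0.14 to 0.70, with 7 of 10 over 0.1 and a median of 0.22, against -0.16 for pairs of different numbers.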

Other observations

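The 46 transcripts that met the mirrored criteria for granulosa cells held 1.05%, 1.25% and 1.04% of TPM in cumulus small 3, medium 4 and large 4, and 4.69% to 6.01% in the other 8 cumulus libraries. They held 2.81%, 2.13% and 2.89% in the granulosa libraries of number 4 and 6.82% to 13.1% in the others. In oocytes they held 0.885%, 0.986% and 0.999% in number 4 and 2.51% to 8.30% in the others. The cumulus-enriched transcripts did not follow this division. Their geometric mean was 16.1, 12.2 and 18.0 TPM in cumulus small 3, medium 4 and large 4, within the range of the other cumulus libraries. In the granulosa transcripts cumulus small 3 stood with the libraries of number 4, while cumulus medium 3 and large 3 held 5.38% and 5.11%. Whether its number corresponds to theirs was not tested. The pairing check, the share of variance by number in cumulus cells and the replicate block all use this number.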
